A study of Homo sapiens with 31 samples.

Results

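The 200 most counted ribosomal protein pseudogenes of NALM-6 cells are described here. They were taken from a table of 30667 genes by 31 samples as the rows annotated with a pseudogene biotype and a ribosomal protein pseudogene symbol, selected on their rank by the sum of unique molecular identifiers (UMIs, 1 per captured cDNA molecule) over all samples. In all, 1043 of 7572 pseudogene rows carried such a symbol, and the first 200 of them held 1644951 UMIs, which was 93.3% of the UMIs of the 1043 rows and 8.01% of the 20542387 UMIs of the table. Because the sums chose these genes, their overall levels are a description, and tests were made only on constructs, days and total UMIs, which the choice did not use.

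NALM-6 is a human B-cell precursor acute lymphoblastic leukemia line. The cells were transduced with 1 of 4 lentiviral vectors that express either a control hairpin (sh-CTRL) or a hairpin against XIAP (sh-XIAP, targeting the X-linked inhibitor of apoptosis protein) from the EF1a or the SFFV promoter, together with the dsRED reporter, and bulk RNA was profiled by prime-seq, which counts the 3′ ends of polyadenylated RNA. SFFV/sh-XIAP is called strong XIAP KD (knockdown) and EF1a/sh-XIAP moderate XIAP KD, and the reference for each was the control hairpin under its own promoter. Days 4, 10 and 13 after transduction held 3, 3 and 3 samples of EF1a/sh-CTRL, 3, 2 and 2 of SFFV/sh-CTRL, 2, 2 and 3 of EF1a/sh-XIAP, and 2, 3 and 3 of SFFV/sh-XIAP. The labels do not say whether samples of a group were separate cultures, so p-values measure the spread between these samples. The labels describe growth in vitro, whereas the series text speaks of cells isolated from murine bone marrow.

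Total UMIs ran from 312852 to 1153668 per sample, with a median of 603822. All 15 B-cell precursor markers were counted, with a summed level of 5586 to 6402 CPM (UMIs scaled to 1000000 per sample), whereas the summed T cell, myeloid and erythroid markers reached at most 22.8, 25.6 and 5.29 CPM. XIAP itself had 2 to 14 UMIs per sample, and its fitted log2 change was -0.26 ± 0.40 (SE, adjusted p = 0.975, limma) in strong and -0.17 ± 0.37 (adjusted p = 0.994) in moderate XIAP KD, so a knockdown of XIAP RNA was not detectable at this depth.

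Ribosomal proteins are encoded by mostly single-copy genes with introns that are transcribed at very high levels, and proteins named RPL belong to the large and RPS to the small ribosomal subunit. Their mRNAs have been reverse transcribed and inserted into the genome many times, which left intronless copies called processed pseudogenes. Such a copy is usually not expected to make protein, carries no promoter along from its parent, and can be nearly identical to the mRNA of its parent gene. A short sequencing read from the parent mRNA can therefore match both places, and how reads that match several places were assigned is not given in the sources used here. A UMI counted on a pseudogene is reported below as such, and whether the RNA came from that locus or from the parent gene cannot be told apart in these counts. UMIs were not divided by gene length, since each counts 1 captured 3′ end.

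Stretches of 30 coding bases show where leading members differ from their parents. For each family the window with most differences among up to 5 leading members was taken, and members of it are shown, read 5′ to 3′ from the transcripts of GENCODE 29 on GRCh38, and outside the capitals the sequences are the same. In a parent, capitals mark positions at which 1 or more of the members shown differ. In a member, capitals mark its own differences from the parent. The window of RPL34, a large-subunit protein gene at chr4:108620566-108630412 (+), covers coding bases 141 to 170.
RPL34: TGtgtgcccaggCagacttCGaGGggttCG
RPL34P34: CAtgtgcccaggAagacttcgaggggttcg
RPL34P6: CgtgtgcccaggcagacttTgaAgggttTg
RPL34P31: CAtgtgcccaggcagacttcAagTggttcC
Counted from the first base of the coding sequence of RPL34, RPL34P34 carries T141C, G142A and C153A, and each of the members shown holds 3 to 5 substitutions in this window. RPL34P27, which is not shown, holds 2 there. T141C is shared by RPL34P34, RPL34P6 and RPL34P31. The window of RPL29, the second family by member UMIs, at chr3:51993522-51995942 (-), covers coding bases 448 to 477.
RPL29: CGTAcCCagGCccctacaaagGcttcAgag
RPL29P11: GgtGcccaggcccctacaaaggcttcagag
RPL29P33: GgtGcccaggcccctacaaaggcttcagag
RPL29P14: GgCTcTcaggcccctacaaaggcttcGgag
RPL29P12: GgtaccGaggcccctacaaagCcttcagag
RPL29P2: GCtGcccagTGccctacaaagActtcagag
Here RPL29P11 and RPL29P33 are the same as each other, with C448G and A451G against RPL29. The window of RPL3, at chr22:39312882-39320389 (-), covers coding bases 1045 to 1074 and shows a member with no difference beside members with several.
RPL3: AAGTcCttgctggtgcagaCGaAGcGGCGg
RPL3P4: aagtccttgctggtgcagacgaagcggcgg
RPL3P2: aagAccttgctggtgcagacAaagcAgcgg
RPL3P1: aCAtcTttgctggtgcagacCaGAcgATgg
RPL3P7: GagtccttgctggtgcagaTgaaAcggcAg
RPL3P4, the most counted of these 4, has 0 substitutions in the window and 2 over its whole alignment of 423 bases.

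The members' UMIs were concentrated in a few genes, and those of RPL34 led. RPL34P18 at chr8:93957338-93957691 (-) held 206866 UMIs, 12.6% of those of all members, and was second among all 30667 rows, after RPL34 itself with 405074 and just before the parent gene RPS18 with 204721. RPL34P27 ranked 6 in the table with 104505 UMIs, and RPL29P11 ranked 12 with 73144. Next came RPL34P34 at chr19:22368599-22368952 (-) with 52135, RPL34P26 with 45475 and RPL29P33 at chr19:34296277-34296592 (-) with 39174. The first 10 were completed by RPL34P6 at chr1:200863808-200864152 (+) with 31592, RPL3P4 at chr14:98972879-98973301 (-) with 29201, RPL39P3 at chr6:73373108-73373263 (-), within the span of OOEP on the same strand, with 26088, and RPL37P6 at chr8:56588385-56588787 (+) with 25855. These 10 held 38.5% of the member UMIs and the first 50 held 69.7%, and 11 members stood among the 100 most counted rows of the table and 104 among the first 1000.

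The other members were far lower but were counted everywhere. All 200 had UMIs in each of the 31 samples. The median member had 3662 UMIs in all, with quartiles of 2088 and 8324. At the end of the ranking the members just inside were RPS15AP38 with 1276 UMIs, RPL13AP6 with 1262, RPL29P25 with 1256, RPS20P10 with 1253 and RPL21P120 with 1252. Just outside stood RPS3AP36 with 1241, RPL12P6 with 1221, RPL36AP45 with 1213, RPL10P12 with 1186 and RPS10P16 with 1177. The 843 rows below rank 200 had a median of 36 UMIs. By biotype 190 members were processed pseudogenes and 10, RPL37P6 among them, transcribed processed pseudogenes. The members lay on 24 chromosomes, 8 of them on that of their parent, and 28 of 200 (14%) lay within a protein-coding gene on its strand, against 117 of 843 (13.9%) of the rows below rank 200.

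The members belonged to 57 parent genes, 35 of the large and 22 of the small subunit. Members of large-subunit parents numbered 128 and held 79.3% of the member UMIs. Here a family is the parent gene with every pseudogene row that bears its name. Pooled over families and samples the members held 41.3% of the family UMIs (1644951 of 3984476), and 37.8% without the RPL34 family. Family by family the share had a median of 37.1% and spanned 2.49% to 86.7%: it was above 50% in 14 families, below 10% in 6 and between these in 37. The plot of the members' share of each family shows that families lay farther apart than samples of the same family.

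**Figure D1:**
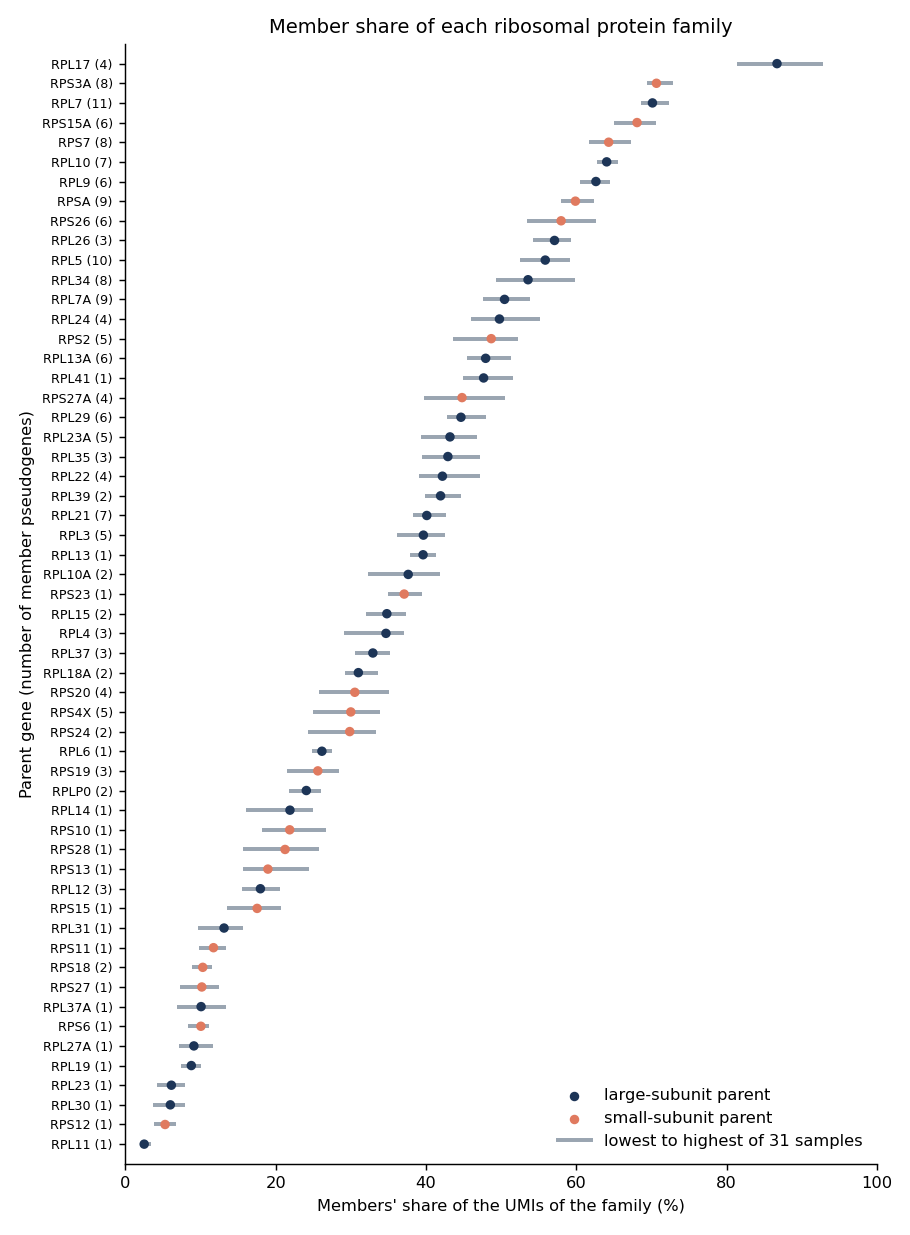
Share of each family's UMIs that the member pseudogenes held (x axis, percent), for 56 families (y axis, number of members in parentheses). Points are pooled over 31 samples, bars run from the lowest to the highest sample, and RPL17 stands at the top with 86.7% and RPL11 at the bottom with 2.49%.

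The RPL34 family held most member UMIs, 468589 in 8 members, which was 53.6% of the family and 28.5% of all member UMIs. In single samples the RPL34 members held 49.3% to 59.9% of their family. RPL29 followed with 137252 UMIs in 6 members (44.6%), then RPL10 with 71182 in 7 (64.0%), RPL7 with 64156 in 11 (70.1%), RPS7 with 63783 in 8 (64.3%) and RPL3 with 58542 in 5 (39.6%). RPL7 had the most members. In the RPL34 and RPL29 families 1 member, RPL34P18 or RPL29P11, held 44.1% or 53.3% of the members' UMIs, whereas in the RPL7 family the first member, RPL7P1, held 24.6%.

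The highest share was found where the parent gene itself was hardly counted. The members of RPL17 held 86.7% of their family, with 12638 UMIs on 4 members against 181 on RPL17. RPL17P34 had 20.4 times the UMIs of its parent, RPL17P36 17.8 times, RPL17P22 16.6 times and RPL17P50 14.96 times. All 4 were thus counted above their parent. High shares with a well counted parent were found for RPS3A (70.7%, 8 members), RPL7 (70.1%) and RPS15A (68.1%, 6 members). The lowest shares were those of RPL11 (2.49%), RPS12 (5.27%), RPL30 (5.97%), RPL23 (6.11%) and RPL19 (8.76%), each with 1 member. The readthrough locus RPS10-NUDT3 had 2 UMIs, and whether readthrough loci affected the shares of these families was not tested.

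At the median, members were closer in sequence to their parents than the less counted rows, although the ranges overlap. Aligned to the best matching protein-coding transcript of the parent, the members had a median identity of 95.5%, against 87.8% for the 843 rows below rank 200. The longest stretch without any difference had a median of 86 bases in members and 37 in the others. A stretch of at least 100 bases was found in 84 of 200 members (42%) and 26 of 843 others (3.08%), and an identity of at least 99% in 21 members and 7 others. RPL39P3 was identical to RPL39 over its 156 bases and had 0.705 UMIs for each UMI of its parent. RPL34P18 had an identity of 96.0% with 14 substitutions and a longest identical stretch of 101 bases. Over the 1043 rows, which share libraries and parents, the Spearman correlation of UMIs with the longest identical stretch was 0.81 and with identity 0.76, whereas within the 200 members it was 0.29 for both. Within the members the UMIs of the parent correlated with those of the member at 0.54. These are correlations across genes and not across replicates.

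**Figure D2:**
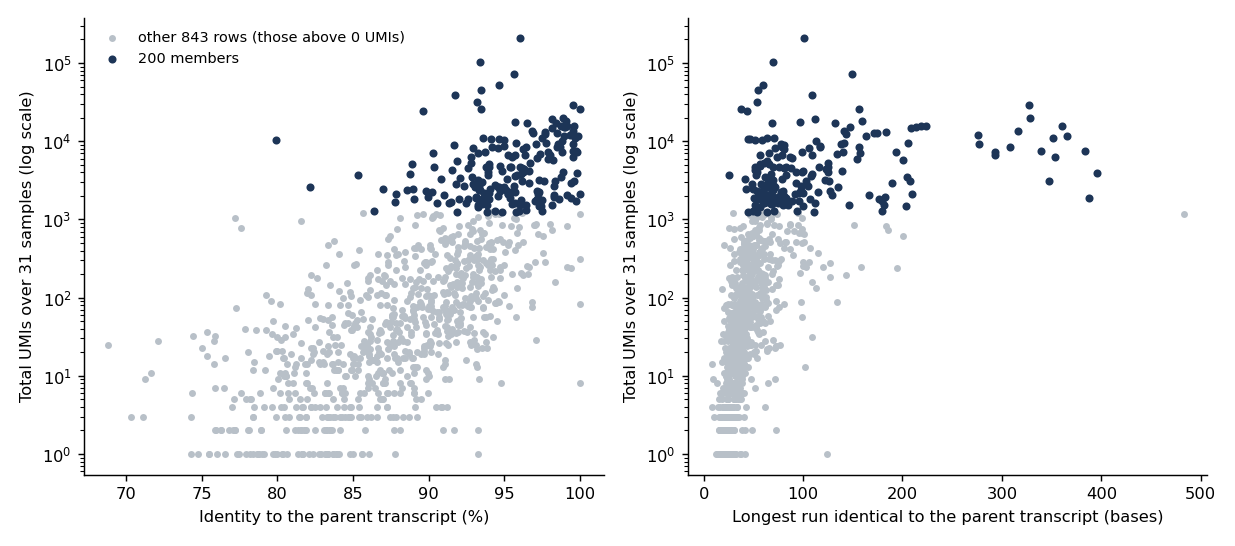
Total UMIs over 31 samples (y axis, log scale) against identity to the parent transcript (left, percent) and the longest run identical to it (right, bases) for the 200 members and for the other pattern pseudogenes with a UMI. Members (dark) lie above the other rows (pale) because they were chosen by total UMIs. On the x axes the lists overlap, with medians of 95.5% and 86 bases in members against 87.8% and 37 bases in all 843 other rows. Members go down to 79.9% and 26 bases, and the 843 rows up to 100% and 483 bases.

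The members differed widely in how much they varied between samples. The coefficient of variation of the CPM over 31 samples had a median of 12.5% and ran from 4.04% for RPL13P12 to 36.2% for RPL39P25. Divided by its degrees of freedom, the chi-square of a member's UMIs against the sample totals had a median of 1.45, where counting error alone gives about 1. It was 0.825 for RPL13P12 and 369 for RPL34P18. Against the sum of member and parent, in place of all UMIs, the median was 0.989, and RPL34P18 still reached 35.9. For most members the split of UMIs between member and parent thus varied about as counting error does, and for RPL34P18, RPL34P34 (24.8), RPL34P27 (22.7) and RPL29P11 (6.52) it varied more.

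RPL34P18 was the member with the largest excess of variation. Its lowest level was 7008 CPM, in SFFV/sh-XIAP day 10 replicate 3, its median 10420 and its highest 18824, in EF1a/sh-CTRL day 4 replicate 2. The lowest sample had 1148669 total UMIs and the highest 372930. RPL34P27 had its lowest and highest levels in the same samples, at 3475 and 9597 CPM with a median of 5176. RPL13P12, by contrast, stayed between 761.9 and 879.3 CPM. The plot of 4 members by construct and day shows 3 RPL34P18 values above the rest, 18824, 16238 and 15991 CPM, in samples with totals of 372930, 312852 and 351081 UMIs, which were 3 of the 4 smallest.

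**Figure D3:**
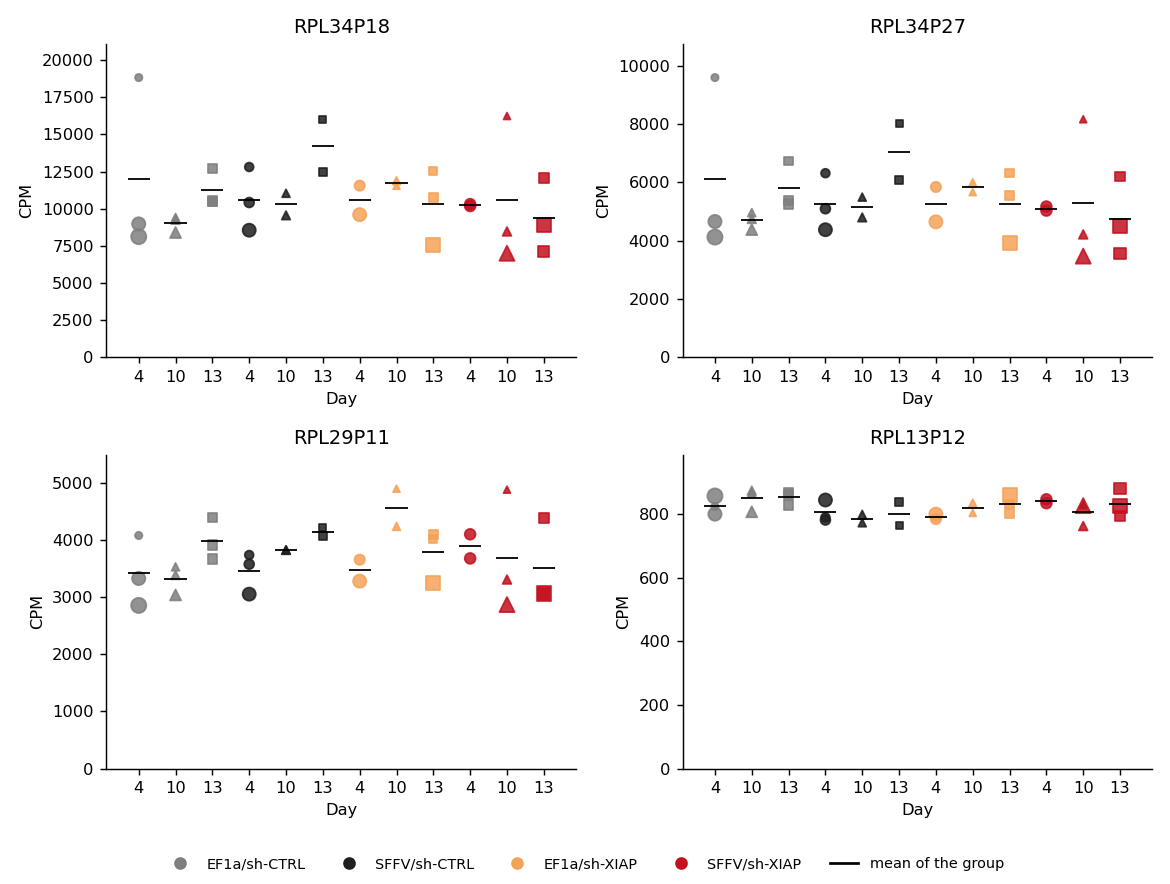
CPM (y axis) of RPL34P18, RPL34P27, RPL29P11 and RPL13P12 by construct (colour) and day (x axis), with 1 point per sample, a larger point for a larger UMI total and a line at the group mean. The highest points of RPL34P18 and RPL34P27 are small ones, whereas RPL13P12 lies between 761.9 and 879.3 CPM throughout.

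The members' share of a sample fell with its total UMIs. Their share of all UMIs ran from 7.002% to 10.2% with a median of 8.10%, and their share of their families from 39.4% to 44.5% with a median of 41.5%. With the total, the share of all UMIs had r = -0.76 and rho = -0.78, and the share of families r = -0.78 and rho = -0.78 (31 samples, permutation p = 1e-05 for both r, the smallest that 100000 resamples can give, and 2e-05 when adjusted over 6 such measures). Without the 2 samples whose totals were farthest from the median, r was -0.72 for both. For the share of families r was -0.91 within day 4 (permutation p = 4e-05, n = 10), -0.84 within day 10 (permutation p = 0.00144, n = 10) and -0.81 within day 13 (permutation p = 0.00268, n = 11). Share and total come from the same library, and whether amount of RNA, sequencing depth or mapping moved with the total was not tested.

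The relation was also measured with the RPL34 members apart. Their share of all UMIs ran from 1.56% to 4.36% with a median of 2.33% (r = -0.70, rho = -0.74, permutation p = 2e-05). The other 192 members held 5.40% to 6.07% of all UMIs, also with a negative relation (r = -0.74, permutation p = 1e-05, the smallest possible). Measured within families and without RPL34, the relation was weak, at r = -0.38 (permutation p = 0.0358, rho = -0.33, permutation p = 0.0744). It fell to r = -0.19 (permutation p = 0.317) without the 2 farthest samples, and within days it was -0.38, -0.66 and 0.24 for days 4, 10 and 13. The relation was thus weaker without those 2 samples and not the same in each day.

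**Figure D4:**
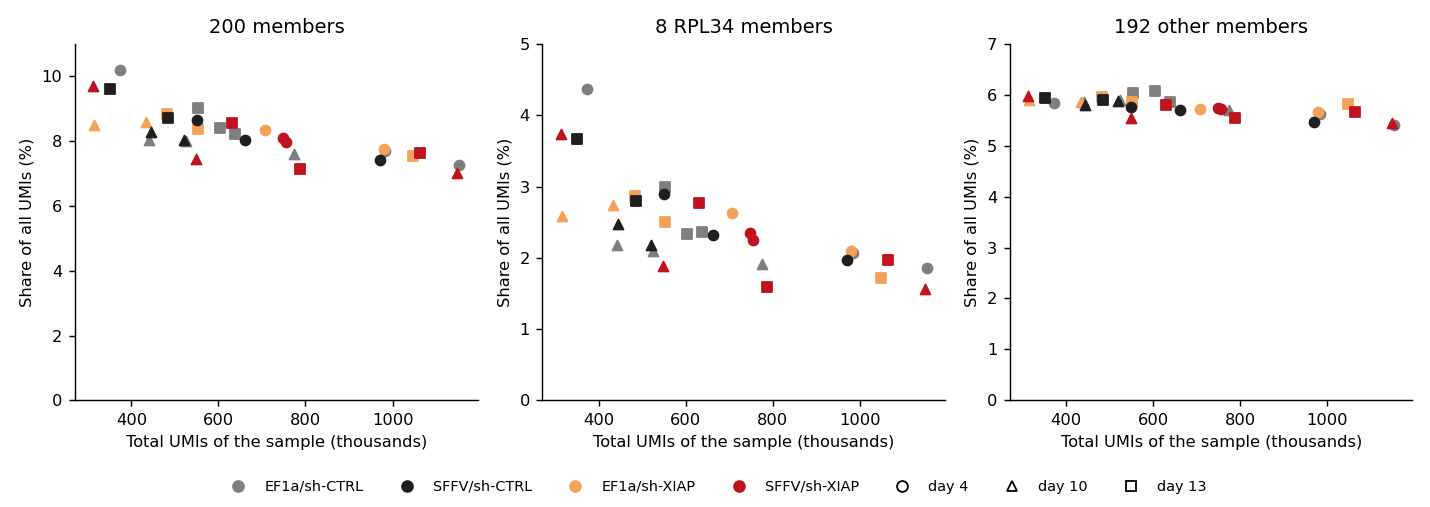
Share of all UMIs (y axis, percent) against the total UMIs of the sample (x axis, in units of 1000) for the 200 members, the 8 RPL34 members and the 192 others, with 1 point per sample coloured by construct and shaped by day. The left and middle panels fall from 10.2% to 7.002% and from 4.36% to 1.56%, and the right panel stays between 5.40% and 6.07%.

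Gene by gene, 33 of 200 members (16.5%) changed with the total at an adjusted p of at most 0.25 in a fit of construct, day and log2 total UMIs (limma-voom), beside 1.77% of the 17676 genes tested. Of these 30 were lower and 3 higher in larger libraries, where 1.31% of all genes were lower. At an unadjusted p under 0.05 there were 55 members, beside 9.01% of genes, and edgeR called 31 members, beside 0.735%. All 8 RPL34 members were lower, by 0.46 to 0.73 on the log2 scale for each doubling of the total, with a median slope of -0.63. All 3 members of RPL37 (median slope -0.45), 3 of 3 of RPL26 (-0.26), 2 of 2 of RPS18 (-0.19) and the 1 member of RPL31 (-0.36) were lower. In the RPL29 family 5 of 6 were lower (median slope -0.38), in RPS7 7 of 8 (-0.26) and in RPL22 1 of 4 (-0.16). Over all members the median slope was 0.00, beside -0.01 over all genes tested.

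Values by sample show the size of these slopes. RPL34P6 ran from 1300 CPM to 3170 with a median of 1928 in the 15 samples with totals up to 553015 UMIs, and from 994.9 to 1887 with a median of 1372 in the 16 samples with totals from 603822. These ranges overlap, and the mean was 1.40 times higher in the smaller libraries (slope -0.73 ± 0.06, SE, adjusted p = 2.95e-15, limma). RPL34P34 ran from 1949 to 5106 CPM with a median of 3097 in the smaller and from 1644 to 3142 with a median of 2296 in the larger libraries (slope -0.72 ± 0.05, adjusted p = 5.77e-16, limma). RPL34P26 had the slope -0.67 ± 0.05 (adjusted p = 5.77e-16) and RPL34P27 -0.61 ± 0.04 (adjusted p = 9.01e-16). For RPL34P18 it was -0.57 ± 0.05 (adjusted p = 1.37e-14), at a mean of 12239 CPM in the smaller and 9367 in the larger libraries. In this fit a single sample, EF1a/sh-CTRL day 4 replicate 3, held 50.4% of the weight of RPL34P18, beside 3.23% if even. The slope of RPL34P18 also passed with edgeR (adjusted p = 5.30e-81) and DESeq2 (adjusted p = 2.76e-21). RPL29P11 was 1.18 times higher in the smaller libraries, with 4033 against 3423 CPM (slope -0.41 ± 0.03, adjusted p = 1.18e-15).

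Of the 3 members that rose with the total, RPL15P18 had a slope of 0.26 ± 0.07 (adjusted p = 0.114, limma), RPLP0P6, a copy of a gene for a stalk protein of the large subunit, 0.08 ± 0.02 (adjusted p = 0.167) and RPS2P5 0.11 ± 0.03 (adjusted p = 0.196). None of these 3 passed when larger libraries were thinned to the smallest total (adjusted p = 0.665, 0.755 and 0.932). The 26 members that passed in all 39 fits of the slope, each leaving out a sample or changing 1 setting, were all lower in larger libraries.

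The parent genes of the falling members fell too. Of the 8 families with a lower member, 7 had a parent called lower and all 8 a parent slope below 0. RPL34 itself had a slope of -0.35 ± 0.03 (adjusted p = 3.11e-14, limma), RPL37 -0.38 ± 0.04 (adjusted p = 2.54e-11) and RPL29 -0.23 ± 0.02 (adjusted p = 1.76e-13). RPL22, the exception, had -0.01 ± 0.03 (adjusted p = 0.956). At the family median the members were steeper than the parent in 7 of these families and less steep in RPS18, whose parent had -0.29. Across the 57 families the Spearman correlation of the median member slope with the parent slope was 0.71 and the signs were the same in 42. Among the 57 parents 11 changed (19.3%), a higher rate than the 16.5% of members. In the less counted ribosomal pseudogenes 8 of 553 tested changed (1.45%), and in all other pseudogenes 85 of 2763 (3.08%).

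**Figure D5:**
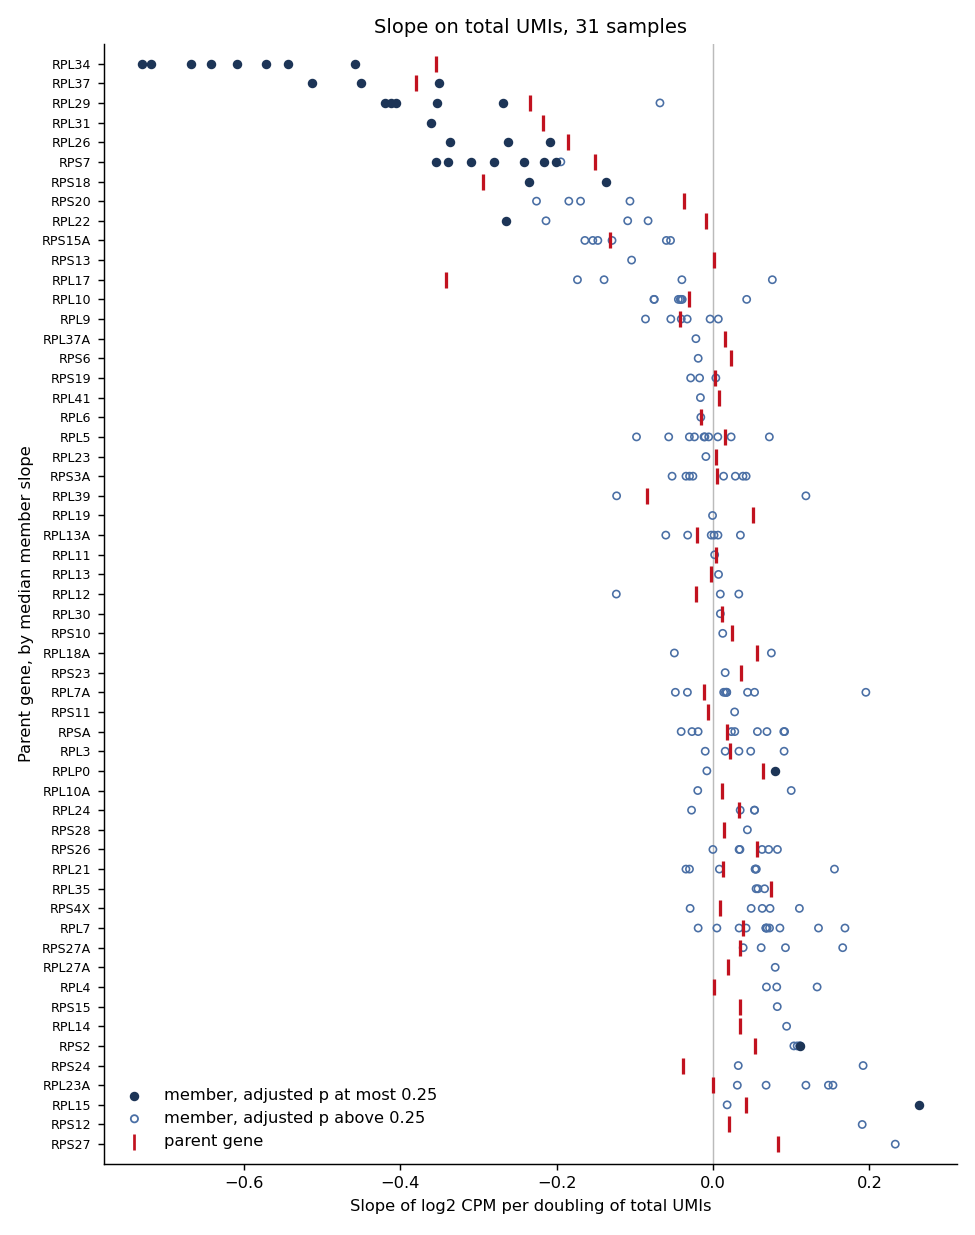
Slope of log2 CPM for each doubling of total UMIs (x axis) of every member and of the parent gene (red bar), for 56 families (y axis, ordered by median member slope), over 31 samples. Filled points passed an adjusted p of 0.25, and RPL34 members stand at the top between -0.73 and -0.46, beyond their parent at -0.35.

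The totals were not even over the groups. At days 10 and 13 their medians were 578418 for EF1a/sh-CTRL (441383 to 774669), 464457 for SFFV/sh-CTRL (351081 to 520334), 482464 for EF1a/sh-XIAP (315055 to 1048088) and 708866 for SFFV/sh-XIAP (312852 to 1148669). SFFV/sh-XIAP samples were thus mostly larger than their SFFV/sh-CTRL samples, a difference that moves with the RPL34 members in the comparison of strong XIAP KD.

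With all samples in the test, the share of the members did not differ between constructs beyond the spread of samples. In strong XIAP KD they held 7.92% ± 1.04 (SD, n = 6) of all UMIs and in SFFV/sh-CTRL 8.66% ± 0.687 (n = 4), with an exact permutation p of 0.238 (two-sided). Of their families they held 41.0% ± 1.60 and 42.2% ± 0.812 (exact permutation p = 0.205). Without SFFV/sh-XIAP day 10 replicate 2, the sample with the smallest total, the difference was -1.10 percentage points of all UMIs and -1.74 of the families, with an exact permutation p of 0.0397 for both. The difference of the family share was -1.85 percentage points at day 13, -0.56 at day 10 and -0.04 at day 4. In moderate XIAP KD the share of families was 41.8% ± 0.706 (n = 5) against 41.7% ± 0.785 (n = 6) in EF1a/sh-CTRL (exact permutation p = 0.742). The same share was 42.2% in SFFV/sh-CTRL and 41.7% in EF1a/sh-CTRL (exact permutation p = 0.319). Day 13 with 41.8% ± 1.03 (n = 11) and day 4 with 41.4% ± 1.31 (n = 10) did not differ beyond their spread either (permutation p = 0.432).

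None of the 57 families had a share that passed an adjusted p of 0.25 in strong or moderate XIAP KD, and 3 had an unadjusted exact permutation p under 0.05 in each. In strong XIAP KD the RPL39 members held 40.7% ± 0.629 (n = 6) against 42.8% ± 0.711 (n = 4), with an exact permutation p of 0.00476, the smallest this design allows, and an adjusted p of 0.271. Among 57 families 0.271 is the lowest adjusted p that 1 family alone can reach in strong XIAP KD. A single family could therefore not pass there, whatever its difference. The RPL3 members held 38.9% ± 0.876 against 40.8% ± 0.521 (exact permutation p = 0.00952, adjusted p = 0.271). In moderate XIAP KD the RPL5 members held 57.8% ± 1.41 (n = 5) against 55.0% ± 1.49 (n = 6), with an exact permutation p of 0.0173 and an adjusted p of 0.494. With every ribosomal pseudogene row counted in place of the members, RPL36A and RPL39 (adjusted exact permutation p = 0.183) and RPL3 (0.244) passed among 77 families in strong XIAP KD. The families named here were chosen after their values were seen.

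In strong XIAP KD 2 of 200 members (1%) passed the adjusted p of 0.25, beside 0.0792% of 17683 genes tested, and both were RPL34 members among the lower genes (0.0622% of those tested). RPL34P27 was at 4803, 5498, 6082 and 8010 CPM in SFFV/sh-CTRL, and its lowest, median and highest values in SFFV/sh-XIAP were 3475, 4363 and 8167. The groups overlap: SFFV/sh-XIAP day 10 replicate 2, the sample with the smallest total, lay above every control, SFFV/sh-XIAP day 13 replicate 3 with 6209 CPM lay above 3 of 4 controls, and the other 4 samples lay below every control. The fitted log2 change of RPL34P27 was -0.56 ± 0.13 (adjusted p = 0.222, limma), -0.29 by edgeR (adjusted p = 0.0384), -0.29 by DESeq2 and 0.061 when all genes were kept, and EF1a/sh-XIAP day 13 replicate 3, a sample outside the comparison that shares in the fit, held 37.7% of its weight, beside 4.76% if all weights were even. RPL34P1 was at 127.9, 135.1, 142.2 and 185.1 CPM in SFFV/sh-CTRL and between 88.3 and 172.6 with a median of 94.1 in SFFV/sh-XIAP, where 5 of 6 samples lay below every control (-0.61 ± 0.15, adjusted p = 0.222). With log2 total UMIs as a covariate the changes were -0.06 (adjusted p = 0.971) and -0.31 (adjusted p = 0.853), and 0 members passed. With a replicate block neither passed (adjusted p = 0.334 and 0.295), and RPL34P18 did (-0.72, adjusted p = 0.0284). Without the block limma did not call RPL34P18, and in that fit a single sample held 71.5% of its weight. edgeR gave -0.30 for it (adjusted p = 0.0171). All 8 RPL34 members had a fitted change below 0, with a median of -0.57 (limma), whereas over all members it was -0.06 and over all genes -0.02. By edgeR the RPL34 members it called ran from -0.58 (RPL34P1) to -0.29 (RPL34P27). The 8 also moved together where no XIAP hairpin was compared. With limma all 8 were above 0 between the control vectors (median 0.26) and for day 13 against day 10 (median 0.20). The highest fitted changes were those of RPS2P35 (0.37, adjusted p = 0.264) and RPL35P2 (0.18, adjusted p = 0.717), which did not pass.

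The count of members in strong XIAP KD depended on the tool. edgeR called 14 members, beside 0.277% of all genes: 7 of the 8 RPL34 members, all 3 RPL37 members, RPL26P37, RPL22P1 and RPL39P3 as lower and RPS2P35 as higher. DESeq2 called 0, beside 0% of all genes. With limma 39 members had an unadjusted p under 0.05, beside 5.59% of all genes. Leaving out single samples moved the limma count between 0 and 13. The count rose to 13 when SFFV/sh-XIAP day 13 replicate 3 was left out, to 12 without SFFV/sh-XIAP day 10 replicate 2, to 11 without EF1a/sh-XIAP day 13 replicate 3, to 7 without EF1a/sh-XIAP day 10 replicate 1 and to 4 without EF1a/sh-CTRL day 13 replicate 3. It fell to 1 without SFFV/sh-XIAP day 10 replicate 1 or day 13 replicate 1, and to 0 in the other 14 fits. The share of all genes called in these fits is not given here, so these counts are not read as a result about the members.

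RPL39P3 was the lower member that edgeR called with the smallest p. Its levels in SFFV/sh-CTRL were 1211, 1414, 1450 and 1531 CPM. In SFFV/sh-XIAP the lowest was 949.7, the median 1111 and the highest 1189, so the groups did not overlap. RPL39P3 was picked by its p in this comparison, and the share of all members or genes that separate in this way is not given here. edgeR gave a log2 change of -0.39 (adjusted p = 5.07e-05) and limma -0.38 ± 0.10 (adjusted p = 0.281). With log2 total UMIs as a covariate limma gave -0.33 (adjusted p = 0.754), and DESeq2 gave -0.39 (adjusted p = 0.99999). In moderate XIAP KD limma gave -0.26 ± 0.09 (adjusted p = 0.992), and the difference between strong and moderate XIAP KD was -0.12 ± 0.14 (adjusted p = 0.980). Its parent RPL39 was between 1411 and 1777 CPM with a median of 1634 in SFFV/sh-XIAP and between 1713 and 2018 with a median of 1937 in SFFV/sh-CTRL (limma -0.25, adjusted p = 0.562, and -0.25, adjusted p = 0.992, in moderate XIAP KD). The slope of RPL39P3 on the total was -0.12 and did not pass. In the other control, EF1a/sh-CTRL, RPL39P3 ran from 1108 to 1995 CPM. At day 4 it was at 1170 and 1251 CPM in SFFV/sh-XIAP and at 1255, 1335 and 1748 in SFFV/sh-CTRL (limma -0.32 ± 0.10, adjusted p = 0.979). These groups did not overlap but came as near as 1251 and 1255 CPM. With 2 against 3 samples an exact permutation p cannot fall below 0.1. Without SFFV/sh-CTRL day 4 replicate 1 the change at day 4 was -0.099 (adjusted p = 0.968), and with a replicate block it was -0.26 (adjusted p = 0.0265).

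In moderate XIAP KD 1 member passed, beside 0.017% of genes tested, of which 0.0113% were lower, and 20 had an unadjusted p under 0.05 (4.63% of genes). This was RPL34P18, with a fitted log2 change of -0.50 ± 0.08 (adjusted p = 0.00092, limma), but its values went the other way. It was at 7585, 10773, 11547, 11883 and 12550 CPM in EF1a/sh-XIAP, and its lowest, median and highest levels in EF1a/sh-CTRL were 8404, 9949 and 12719. The groups overlap and the mean was higher in EF1a/sh-XIAP, at 10868 against 10133. The fit weights each value by its estimated precision, and for RPL34P18 a single sample, SFFV/sh-XIAP day 13 replicate 1, carried 71.5% of the weight, where an even share would be 4.76%. Without EF1a/sh-XIAP day 13 replicate 3 the change was 0.094 (adjusted p = 0.986), and edgeR gave 0.097 (adjusted p = 0.9996) and DESeq2 0.11 (adjusted p = 0.9993), so no change of RPL34P18 is read from this fit. The most positive results were RPL5P17 (0.34) and RPL5P1 (0.22), both with an adjusted p of 0.992, and RPL34P27 had -0.46 (adjusted p = 0.280).

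Strong and moderate XIAP KD were also compared directly, as the difference of both changes. With limma 0 members passed, beside 0.00566% of genes, and 24 had an unadjusted p under 0.05 (5.06% of genes). RPL34P1 had the difference -0.71 ± 0.21 and RPL37P2 -0.47 ± 0.15, whereas RPL35P5 had 0.42 ± 0.13 and RPL35P2 0.27 ± 0.09, each with an adjusted p of 0.964. edgeR called 11 members, beside 0.13% of genes, all lower in strong XIAP KD and all from the RPL34, RPL37 and RPL29 families. DESeq2 called 0 members, beside 0% of genes. The limma count was 10 without EF1a/sh-XIAP day 13 replicate 3, which with 1048088 UMIs was the largest library of its group, and 0 in the other 20 fits that left out a sample. For these fits too the share of all genes called is not given here.

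Between the control vectors, SFFV/sh-CTRL against EF1a/sh-CTRL, 0 members passed with limma, beside 0.00566% of genes, with 17 members at an unadjusted limma p under 0.05 (5.15% of genes). With DESeq2 0 members passed too, beside 0% of genes. edgeR called 2 members, beside 0.0283% of genes, RPL34P6 (0.35, adjusted p = 0.135) and RPL34P18 (0.29, adjusted p = 0.144) as higher. RPL34P18 was at 9559, 11040, 12500 and 15991 CPM in SFFV/sh-CTRL, and the lowest, median and highest of EF1a/sh-CTRL were given above as 8404, 9949 and 12719, so the groups overlap. The smallest limma p values belonged to RPS2P35 (-0.28), RPSAP58 (-0.22), RPL35P1 (0.13) and RPL10AP2 (0.26), each with an adjusted p of 0.923.

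Days were compared over all constructs. Against day 10, 2 members were higher at day 13, beside 0.0452% of genes: RPL34P18 (0.38 ± 0.01, adjusted p = 5.81e-38, limma) and RPL34P27 (0.30 ± 0.07, adjusted p = 0.131). RPL34P18 had 7008 CPM as its lowest, 9489 as its median and 16238 as its highest value at day 10, and 7135, 10773 and 15991 at day 13. The days overlap almost wholly, edgeR and DESeq2 gave adjusted p values of 0.9994 and 0.9998 for it, and the small error comes from the same weighting, in which 1 sample of 21 held 71.5%. By edgeR 0 members passed, beside 0.0226% of genes, and by limma 31 had an unadjusted p under 0.05 (4.96% of genes). The lowest changes were those of RPS28P7 (-0.21) and RPL13AP3 (-0.19), both with an adjusted p of 0.983.

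Against day 4, 7 members passed at day 13, beside 0.515% of genes. Of these 5 were higher (0.311% of genes) and 2 lower (0.204%), and 37 members had an unadjusted p under 0.05 (6.46%). RPS2P46, a copy of a small-subunit gene, had 284.2 CPM as its lowest, 374.4 as its median and 411.6 as its highest value at day 4, and 307.6, 414.1 and 551.5 at day 13 (0.22 ± 0.06, adjusted p = 0.0856, limma, and 0.0287 with edgeR). The days overlap, and 6 of 11 samples of day 13 lay above every sample of day 4. RPS2P5 (0.16 ± 0.04, adjusted p = 0.161), RPS2P55 (0.20 ± 0.06, adjusted p = 0.214), RPLP0P6 (0.11 ± 0.03, adjusted p = 0.120) and RPL7AP66 (0.21 ± 0.06, adjusted p = 0.239) were the other higher members. RPS19P3 was lower, with a mean of 501 ± 47.3 CPM (SD, n = 11) at day 13 against 562 ± 46.5 (n = 10) at day 4 (-0.15 ± 0.04, adjusted p = 0.202, limma). edgeR called 3 members, RPS2P46, RPS2P55 and RPS19P3, beside 0.43% of genes. RPL34P18 was called lower (-0.35 ± 0.02, adjusted p = 1.98e-14, limma), but its mean was 11023 CPM at day 13 and 10938 at day 4, a single sample held 99.5% of its weight, and edgeR gave 0.018 (adjusted p = 0.9995). Without EF1a/sh-XIAP day 13 replicate 3 or EF1a/sh-XIAP day 4 replicate 2, 0 members passed.

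At day 4, with 2 samples of each XIAP construct against 3 controls, an exact permutation test could not go below 0.1, and the fits rest on the spread shared by 10 samples. In strong XIAP KD 0 members passed with limma or edgeR, beside 0.0109% of genes by limma (0.00545% higher and 0.00545% lower) and 0.0436% by edgeR, and 21 had an unadjusted limma p under 0.05 (4.73%). RPL29P11 was at 3678 and 4100 CPM in SFFV/sh-XIAP and at 3052, 3576 and 3737 in SFFV/sh-CTRL (0.23 ± 0.06, adjusted p = 0.497), so the groups overlap, and RPL37P6 had 0.35 (adjusted p = 0.979). With log2 total UMIs as a covariate both passed (0.20, adjusted p = 1.74e-06, and 0.34, adjusted p = 3.20e-07), and with a replicate block too (0.29, adjusted p = 2.14e-08, and 0.42, adjusted p = 4.36e-04), whereas without SFFV/sh-CTRL day 4 replicate 1 they were at 0.084 and 0.15 (adjusted p = 0.963 for both). RPS12P23 had the lowest fitted change, -0.62 (adjusted p = 0.979). In moderate XIAP KD 1 member passed, beside 0.0491% of genes (0.0436% higher and 0.00545% lower), and 16 had an unadjusted p under 0.05 (4.5%). The member was RPL34P18 (0.29 ± 0.04, adjusted p = 0.000252, limma). It was at 9604 and 11555 CPM in EF1a/sh-XIAP and at 8126, 8983 and 18824 in EF1a/sh-CTRL, where the mean was higher (11978 against 10579), and a single sample held 71.1% of its weight. edgeR gave -0.17 (adjusted p = 0.993). RPL29P11 (0.17), RPL21P28 (-0.29) and RPL39P25 (-0.43) each had an adjusted p of 0.976.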

How the data were processed

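Bulk RNA of NALM-6 cells was profiled in 31 samples by prime-seq, and the authors deposited 1 table of raw UMI counts per Ensembl gene, with no normalization. Per the submitters' processing notes STAR 2.6.0a was used, and human and mouse builds are named without a role. How reads matching several loci were assigned is not given in the sources used here. All 31 columns were matched to a sample and 0 columns belonged to none. The members and lists were chosen with earlier results of these data known.

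Gene names, biotypes, coordinates and transcripts came from GENCODE 29 (GRCh38), which paired 29928 of 30667 rows and may differ from the annotation used for counting. Each pseudogene was aligned locally to the protein-coding transcripts of its parent of up to 4000 bases with Biopython 1.88 (match 1, mismatch -2, gap opening -3, gap extension -1), and the best-scoring transcript was kept. The windows shown span 30 coding bases with the most substitutions over up to 5 leading members that align without a gap.

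Comparisons across genes used limma 3.58.1 (voom) with TMM scaling from edgeR 4.0.16 in R 4.3.3, with construct and day as terms, genes above 1 CPM in at least 1 of 3 samples and a Benjamini-Hochberg adjusted p of at most 0.25 over all genes tested. Days 10 and 13 (21 samples) gave the construct comparisons and the comparison of days 10 and 13. Day 4 (10 samples) was fitted alone, and all 31 samples gave day 13 against day 4 and the slope on log2 total UMIs. The same comparisons were repeated with DESeq2 1.42.0, edgeR's quasi-likelihood test, limma-trend, DESeq2 size factors, no filter, a replicate block, log2 total UMIs as a covariate, thinning to the smallest total for the slope, and leaving out each sample. The fits were tested on simulated data. Shares were compared by two-sided permutation tests (numpy 2.4.6), exact below 10 samples a group and with 100000 resamples otherwise, for families of at least 1000 UMIs. The p-values take the sample as the unit, whereas the chi-square values treat UMIs as independent molecules.

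The text names the 10 most counted members, the 5 on either side of the end of the ranking, the called members with the 3 smallest p-values in each direction of a comparison (or, with fewer than 2 called, the 2 with the smallest p), the 6 families with most member UMIs, the 5 with the highest and the 5 with the lowest member share, and their parents. Further members are named where a tool called them. Some items that this rule names are not reported here.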

Additional observations from a re-analysis of the deposited data

Results flagged for a closer look

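In 5 of 52 groups of 4 to 10 samples examined at days 10 and 13, covering shares and the 10 most counted members, 1 sample lay far from the others for the range of its group. Chance gives about 1 in 20 such groups. The same samples enter each measure, so the groups are not independent.

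EF1a/sh-XIAP day 13 replicate 3 was the lowest of 5 samples of its group in the members' share of their families, at 40.6% with the nearest sample at 41.9%. It was also lowest for RPL34P34, at 1866 CPM with the nearest at 2916. This sample had 1048088 UMIs, the largest total of its group.

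EF1a/sh-CTRL day 13 replicate 3 was the highest of 6 samples of its group for 3 members. RPL34P26 was at 3078 CPM with the nearest sample at 2247, RPL29P33 at 2329 with the nearest at 1918, and RPL34P6 at 2072 with the nearest at 1523.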

How the results depend on the processing

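Numbers of members that passed in each comparison moved with the tool and with single samples. The percentage after a count is that over all genes in the same fit. For fits without a sample that share is not given here, so their counts are not read as a result about the members. DESeq2 called 0 members and 0% of all genes in each comparison within days 10 and 13 and within day 4. In strong XIAP KD, where 2 passed, edgeR gave 14 (0.277%), DESeq2 0, size factors from DESeq2 11 (0.17%), keeping all genes (no filter) 0, log2 total UMIs as a covariate 0 and the fits without a single sample 0 to 13. In moderate XIAP KD, where 1 passed, edgeR, DESeq2, limma-trend and the covariate gave 0 and no filter 2 (0.0686%), and fits without a sample gave 0 to 2, with 0 without EF1a/sh-XIAP day 13 replicate 3 or SFFV/sh-XIAP day 10 replicate 3. For strong against moderate XIAP KD edgeR gave 11 (0.13%) in place of 0 and fits without a sample 0 to 10, with 10 without EF1a/sh-XIAP day 13 replicate 3. Between control vectors edgeR gave 2 (0.0283%) in place of 0, and fits without a sample all gave 0. For day 13 against day 10, where 2 passed, edgeR, DESeq2 and limma-trend gave 0 and the covariate 9 (0.136%), and fits without a sample gave 0 to 2, with 0 without SFFV/sh-XIAP day 10 replicate 3 or day 13 replicate 1. For day 13 against day 4, where 7 passed, edgeR gave 3 (0.43%), limma-trend 0, DESeq2 size factors 12 (0.6%), no filter 12 (0.37%) and the covariate 13 (0.724%), and fits without a sample gave 0 to 10, with 0 without EF1a/sh-XIAP day 13 replicate 3 or day 4 replicate 2, 3 without EF1a/sh-XIAP day 4 replicate 1 and 10 without SFFV/sh-XIAP day 4 replicate 1 or 3. At day 4 strong XIAP KD gave 2 (0.0423%) with no filter and 3 (0.06%) with the covariate in place of 0, and 0 to 3 without a sample, with 3 without EF1a/sh-CTRL day 4 replicate 3. Moderate XIAP KD at day 4, where 1 passed, gave 0 by edgeR, DESeq2 and limma-trend and 0 to 4 without a sample, with 4 without EF1a/sh-CTRL day 4 replicate 2 and 0 without EF1a/sh-XIAP day 4 replicate 1. The slope on total UMIs, with 33 members, gave 85 with no filter (42.5% of members, beside 54.4% of all genes) and 27 to 37 without a sample. The cause of these differences was not tested.

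Over all genes that passed the filter, deviations of samples with the same replicate number had a mean correlation of -0.00055 (149 pairs). For pairs with different numbers it was 0.0003 (290 pairs). The highest correlation of any pair was 0.0264, so this measure cannot tell whether the numbers pair the samples. With a replicate block 1 member passed in strong XIAP KD (0.0396% of genes), RPL34P18 (-0.72, adjusted p = 0.0284, limma), where RPL34P27 and RPL34P1 did not. edgeR without the block gave -0.30 for RPL34P18. The block gave 0 members in moderate XIAP KD (0% of genes) and 0 for day 13 against day 10 (0.0226%). It gave 6 for day 13 against day 4 (0.492%), 6 in strong (0.136%) and 2 in moderate XIAP KD at day 4 (0.0273%), and 28 for the slope (1.05%).

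Among single members, RPL34P27 in strong XIAP KD had a log2 change of 0.061 with no filter. RPL34P18 in moderate XIAP KD had 0.097 by edgeR, 0.11 by DESeq2, 0.082 by limma-trend, 0.30 with no filter and -0.57 to 0.094 without a sample. RPL34P27 in moderate XIAP KD had 0.059, 0.076, 0.050 and 0.069 under the same settings and -0.50 to 0.13 without a sample. Both were above 0 without EF1a/sh-XIAP day 13 replicate 3. RPL34P18 for day 13 against day 4 had 0.018 by edgeR, 0.024 by DESeq2, 0.034 by limma-trend and -0.36 to 0.23 without a sample. RPL34P18 in moderate XIAP KD at day 4 had -0.17 by edgeR, -0.21 by DESeq2, -0.067 by limma-trend, -0.42 with no filter and -0.23 with a replicate block.

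With every ribosomal pseudogene row counted in place of the 200 members, the difference of the share of families in moderate XIAP KD was -0.00304 percentage points, and without a sample it was -0.0585 to 0.460, below 0 without EF1a/sh-CTRL day 10 replicate 1. In strong XIAP KD it was -1.74 to -0.828 without a sample, and the share of all UMIs differed by -1.10 to -0.428, with an exact permutation p of 0.0397 for both without SFFV/sh-XIAP day 10 replicate 2. With every such row counted, 3 of 77 families passed in strong XIAP KD, RPL36A and RPL39 (adjusted exact permutation p = 0.183) and RPL3 (0.244), with RPL36A higher and the others lower. Depth limits members near 1252 UMIs over 31 samples most.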

Other observations

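In the RPS2 family 3 of 5 members were higher at day 13 than at day 4 with limma, and 1 of them, RPS2P5, also rose with the total. RPS2 encodes a protein of the small subunit, and its 5 members held 48.7% of the family, at 52067 UMIs against 51889 on RPS2. RPS2P35 at chr9:100116755-100117651 (-) was the least like RPS2 of these, at 94.0% identity and a longest identical stretch of 66 bases. In SFFV/sh-CTRL at days 10 and 13 it was at 175.4, 182.3, 234.5 and 245.4 CPM, and in SFFV/sh-XIAP its lowest, median and highest values were 248.9, 261.4 and 307.5, so the groups did not overlap. RPS2P35 was picked by its p in this comparison, and the share of all members or genes that separate in this way is not given here. At day 4 RPS2P35 was at 201.9, 211.2 and 243.2 CPM in SFFV/sh-CTRL and at 256.6 and 259.4 in SFFV/sh-XIAP. These did not overlap either, but 2 against 3 samples allow no exact permutation p below 0.1. In the other control, EF1a/sh-CTRL, RPS2P35 ran from 233.6 to 276.6 CPM with a median of 263.8 at days 10 and 13. The fitted change in strong XIAP KD at days 10 and 13 did not pass with limma (0.37, adjusted p = 0.264) and passed with edgeR (adjusted p = 0.0384). It did not pass with DESeq2 (adjusted p = 0.99999) or with log2 total UMIs as a covariate (limma 0.28, adjusted p = 0.755).

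Pseudogene rows of every kind held 17.1% to 20.8% of the UMIs of a sample, with a median of 18.4%, and the 200 members held 41.0% to 49.1% of these.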
